A study of Mus musculus with 6 samples.

Results

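The 7 genes Gm10718, Gm10719, Gm10720, Gm10722, Gm10800, Gm10801 and Gm11168 are repeat-like mouse gene models, chosen by symbol, with their shares of the reads and 1 KO call, that of the Gm10719 promoter, already known. They account for 21 of the 36321 regions and 7 of the 12107 genes in the tables. RNA polymerase II (Pol II) on chromatin had been measured with ChIP-seq, by precipitating POLR2A (RPB1), the largest Pol II subunit, through its N-terminal domain. The cells were neural stem and progenitor cells (NPCs) of e13.5 ganglionic eminences, expanded as neurospheres (strain 129 sv X CD1 by the labels, CD1 with C57BL/6 by the study's methods), in 3 WT and 3 Armc5(-/-) (KO) libraries numbered as replicate pairs 1 to 3. The knockout is constitutive, ARMC5 being the substrate receptor of a ubiquitin ligase that acts on POLR2A. The authors counted reads per gene in the promoter (400 bases before to 100 after the transcription start), the gene body and the TES region (100 bases before to 2000 after the transcription end). The shares of reads below chose the genes and are given as a description with no test.

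Pericentromeric heterochromatin of mouse chromosomes is built on long tandem arrays of a short AT-rich repeat, the major (gamma) satellite. These arrays are normally packed with HP1 and methylated histone H3, and their transcription by Pol II is usually low. Genome assemblies hold only a small part of them, so that reads from many copies in the cell can fall on the few copies that the assembly contains. Gene models such as these 7 were predicted inside or beside such copies and have no established protein function.

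On GRCm38 with GENCODE vM21, where all 7 are annotated as protein coding, the genes form 2 groups. Gm10722, Gm11168, Gm10720, Gm10719 and Gm10718 follow each other on the plus strand of chromosome 9, and their windows span chr9:3000522-3027218. Gm10801 (plus strand, chr2:98662237-98664083) and Gm10800 (minus strand, chr2:98666547-98667301) face each other on chromosome 2. Shifted by 234 bases, the chromosome 9 stretch was identical to itself at 68.6% of positions, against a median of 31.4% over all shifts tested. One such unit, at chr9:3003274-3003507, matched the copy after it at 228 of 234 bases and was 64.1% A or T. It lies within the TES window of Gm10722, and it starts in the promoter window of Gm11168 and runs into its gene body. Its sequence and the best matches to it in the gene with the most reads, in the promoter with the fewest reads and in the gene with the largest residual spread are shown because they tie both groups to a single repeat. Capitals mark bases that differ from the unit, and each is written in the direction of the unit:

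Repeat unit, chr9:3003274-3003507, plus strand: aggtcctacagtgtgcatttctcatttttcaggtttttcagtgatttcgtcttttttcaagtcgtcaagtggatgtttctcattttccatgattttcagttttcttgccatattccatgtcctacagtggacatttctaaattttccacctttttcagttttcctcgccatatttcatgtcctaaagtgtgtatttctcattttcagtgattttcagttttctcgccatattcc
Gm10800 gene body, chr2:98666655-98666888, minus strand: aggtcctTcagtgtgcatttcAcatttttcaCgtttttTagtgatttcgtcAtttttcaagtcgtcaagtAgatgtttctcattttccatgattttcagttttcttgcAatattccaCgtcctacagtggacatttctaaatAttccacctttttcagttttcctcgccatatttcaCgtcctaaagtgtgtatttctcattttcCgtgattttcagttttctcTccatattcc
Gm10719 promoter, chr9:3017103-3017336, plus strand: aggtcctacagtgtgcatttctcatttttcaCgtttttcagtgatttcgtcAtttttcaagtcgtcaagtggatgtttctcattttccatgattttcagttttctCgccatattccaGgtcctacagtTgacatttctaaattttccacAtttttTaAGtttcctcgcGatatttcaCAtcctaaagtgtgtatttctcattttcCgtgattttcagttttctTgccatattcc
Gm10718 gene body, chr9:3024410-3024643, plus strand: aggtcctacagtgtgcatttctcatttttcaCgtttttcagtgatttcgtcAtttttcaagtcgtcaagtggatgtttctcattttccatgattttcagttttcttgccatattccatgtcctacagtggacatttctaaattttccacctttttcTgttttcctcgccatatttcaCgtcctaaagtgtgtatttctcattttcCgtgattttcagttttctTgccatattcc

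The Gm10800 match differed from the unit at 12 of 234 bases, the Gm10719 match at 14 and the Gm10718 match at 6. All 15 windows of the chromosome 9 genes were covered over 100% of their length by matches to the unit, partial matches included. The Gm10800 gene body, 555 bases long, was also covered over 100%, whereas its promoter was covered over 27.1% and its TES region over 4.90%. For Gm10801 the coverage was 21.2% of the promoter, 40.8% of the gene body and 5.19% of the TES region. The unit had 3138 matches of any length in the assembly, partial and overlapping ones included, which together covered 209863 bases. Of these bases, 63.1% lay on contigs outside the assembled chromosomes, 18.5% on chromosome 9 and 0.799% on chromosome 2. Among the 12034 other genes with a position, only 4 had a match in the promoter, namely Gm10715, Gm10717 and Gm17535 next to the chromosome 9 genes and Gm21738 on chromosome 14. These 4 were picked by sequence and not by reads and serve as a comparison below.

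Reads from such windows can often be placed in several positions. Of the 31-base stretches in the Gm10719 promoter, 0% occur once in the assembly. The share was 3.82% to 19.9% in the other chromosome 9 windows and 14.0% to 37.8% in the chromosome 2 windows. The median of the other promoters was 100%, and 108 of them (0.897%) were below 50%. The placement of reads with several equal positions was not given in the sources used here. Several windows also share bases, so their reads are not independent. Those of the Gm10801 and Gm10800 TES regions share 1537 bases, the Gm11168 promoter lies wholly in the Gm10722 TES region, and the Gm10719 promoter shares 399 bases with the Gm10720 TES region. The Gm10719 TES region shares 447 bases with the Gm10718 promoter, and the Gm10720 TES region 1703 with the Gm10719 gene body. The Gm10722 TES region shares 885 bases with the Gm11168 gene body, and the Gm10720 gene body 103 with the Gm10719 promoter.

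The part of the promoter reads that lay on these 7 genes differed widely between libraries and was large in library 3 of each group. Together they held 2.33%, 8.75% and 22.0% of the promoter reads in WT 1, 2 and 3 and 4.90%, 9.04% and 33.9% in KO 1, 2 and 3. The WT and KO ranges overlap, and the highest value of each group is its library 3. In gene bodies the share was 1.74%, 2.38% and 4.32% in WT and 1.87%, 2.03% and 3.88% in KO. In TES regions it was 5.16%, 6.69% and 16.5% in WT and 4.85%, 7.04% and 14.3% in KO. Over the 3 kinds of region together the 7 genes held 2.07% to 6.10% of all reads in WT and 2.46% to 6.57% in KO. Libraries WT 3 and KO 3 also had the lowest totals (14528870 and 16056262 reads, against 18863084 to 25199455 in the other libraries) and the lowest promoter share of all reads, 6.04% and 6.88% against 10.9% to 12.2%. That promoter share includes the reads of the 7 genes. Without them it was 5.01% in WT 3 and 4.87% in KO 3, against 10.3% to 11.9%. The part of the totals or of the promoter share in the satellite share was not tested. Counting error was small beside these differences, since the widest exact binomial 95% interval of a single region's share reached 0.0866 percentage points to either side.

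**Figure D1:**
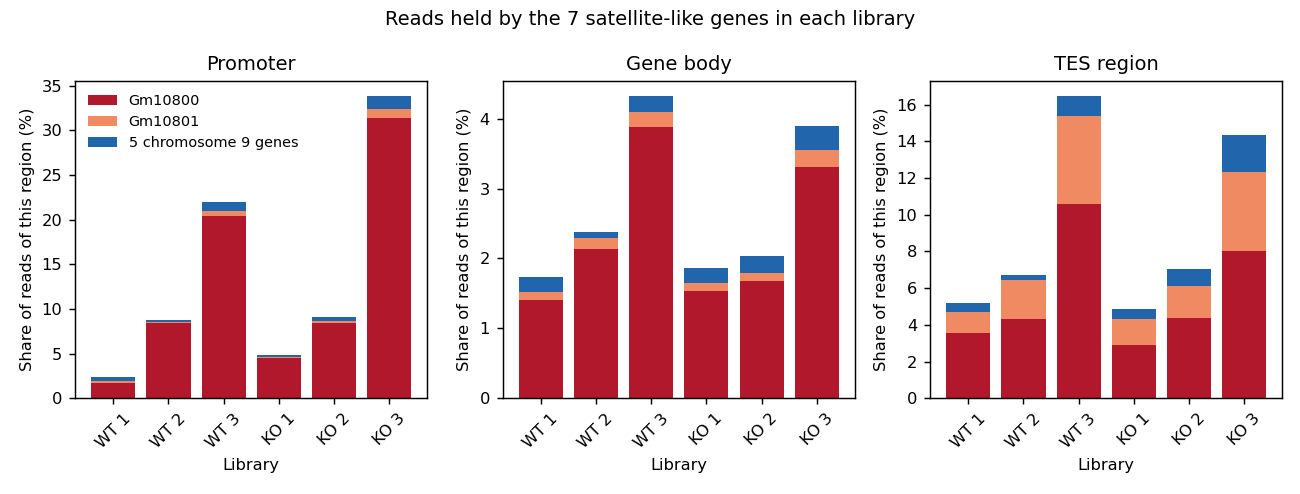
Share of the reads of each kind of region (percent, vertical axis) held by Gm10800, Gm10801 and the 5 chromosome 9 genes in each library. Library 3 of both groups stands highest in all 3 panels, and Gm10800 makes up most of every bar.

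Gm10800 held most of these reads. Its promoter had 35192, 224397 and 179278 reads in WT and 139802, 181880 and 347238 in KO, which is 1.71%, 8.43% and 20.4% of the promoter reads in WT and 4.54%, 8.39% and 31.4% in KO. It was the promoter with the most reads in all 6 libraries. Of the promoter reads of the 7 genes it held 73.2% in WT 1 and 92.7% to 96.4% in the other libraries. The best filled promoter outside the 7 genes was H2-DMa or Gm21738, with at most 0.0980% of promoter reads. The Gm10800 gene body had 214979, 418865 and 496444 reads in WT and 309888, 272245 and 462833 in KO, and its TES region 53143, 68757 and 89932 in WT and 54864, 55181 and 76196 in KO. Scaled by TMM, the gene body level was 22470 ± 15760 CPM in WT and 18990 ± 11970 CPM in KO (SD, n = 3 each). Library 3 was the highest of its group there as well.

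The promoter and the gene body of Gm10800 were both highest in library 3 of each group (r = 0.80 over the 6 libraries), but not in a fixed proportion. The ratio of promoter to gene body reads was 0.164, 0.536 and 0.361 in WT and 0.451, 0.668 and 0.750 in KO, so WT 1 was the lowest. Its highest value was 4.58 times its lowest, against a median of 2.83 times over 7025 other genes with a mean of at least 100 reads in both regions. The median ratio of those genes was 0.276, 0.285 and 0.141 in WT and 0.295, 0.278 and 0.130 in KO. It was thus lowest in library 3 of each group, whereas the Gm10800 ratio was highest in KO 3. For Gm10801, beside it, the promoter had 5410, 2899 and 4459 reads in WT and 2123, 5745 and 10873 in KO. Its lowest library was KO 1 and its highest KO 3, and the same ratio was 0.288, 0.0969 and 0.162 in WT and 0.0841, 0.285 and 0.316 in KO. The gene bodies of the 2 genes rose and fell together over the 6 libraries (Pearson r = 0.97), whereas their promoters did so less closely (r = 0.40). These are descriptions over 6 libraries that share scaling and preparation.

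On chromosome 9 the order of the genes along the array was followed by runs of low values in single WT libraries. The Gm10722 promoter, the first window, had 4771, 4843 and 3964 reads in WT and 4821, 6077 and 12251 in KO. Its gene body had 11812, 12020 and 328 reads in WT and 11725, 6684 and 11997 in KO. WT 3 was thus low in the gene body and not in the promoter next to it.

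The low run of WT 3 went on through the windows that follow. The Gm10722 TES region had 1086, 2460 and 114 reads in WT and 2021, 3363 and 5346 in KO. The Gm11168 promoter had 126, 435 and 16 reads in WT and 363, 684 and 582 in KO, its gene body 8223, 4630 and 148 in WT and 6484, 4299 and 7841 in KO, and its TES region 539, 703 and 16 in WT and 2135, 3734 and 6406 in KO. In each of these windows WT 3 was the lowest of all 6 libraries. For the gene bodies of Gm10722 and Gm11168 together the levels were 978, 659 and 38.7 CPM in WT and 655, 527 and 1404 CPM in KO.

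Further along, WT 2 was low together with WT 3 up to the Gm10719 gene body, and without WT 3 from the Gm10719 TES region on. The Gm10720 promoter had 343, 58 and 72 reads in WT and 195, 123 and 234 in KO. Its gene body had 141, 23 and 10 reads in WT and 197, 163 and 175 in KO, with both WT 2 and WT 3 low. The Gm10719 gene body had 883, 109 and 159 reads in WT and 1115, 1137 and 1081 in KO, and its TES region 2572, 150 and 5192 in WT and 2500, 1617 and 3536 in KO. WT 3 was therefore low in the Gm10719 gene body and the highest library in its TES region.

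Gm10718 showed the widest differences. Its promoter had 2247, 31 and 5686 reads in WT and 3280, 1369 and 2793 in KO. Its gene body had 10887, 433 and 28423 reads in WT and 22848, 26248 and 25291 in KO, and its TES region 2286, 676 and 3960 in WT and 2300, 2152 and 3273 in KO. WT 2 was the lowest and WT 3 the highest library in its promoter, gene body and TES region after scaling by TMM. Scaled by TMM, the highest WT library was 377 times the lowest in the promoter and 135 times in the gene body, against 3.01 and 2.18 times among the KO libraries.

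**Figure D2:**
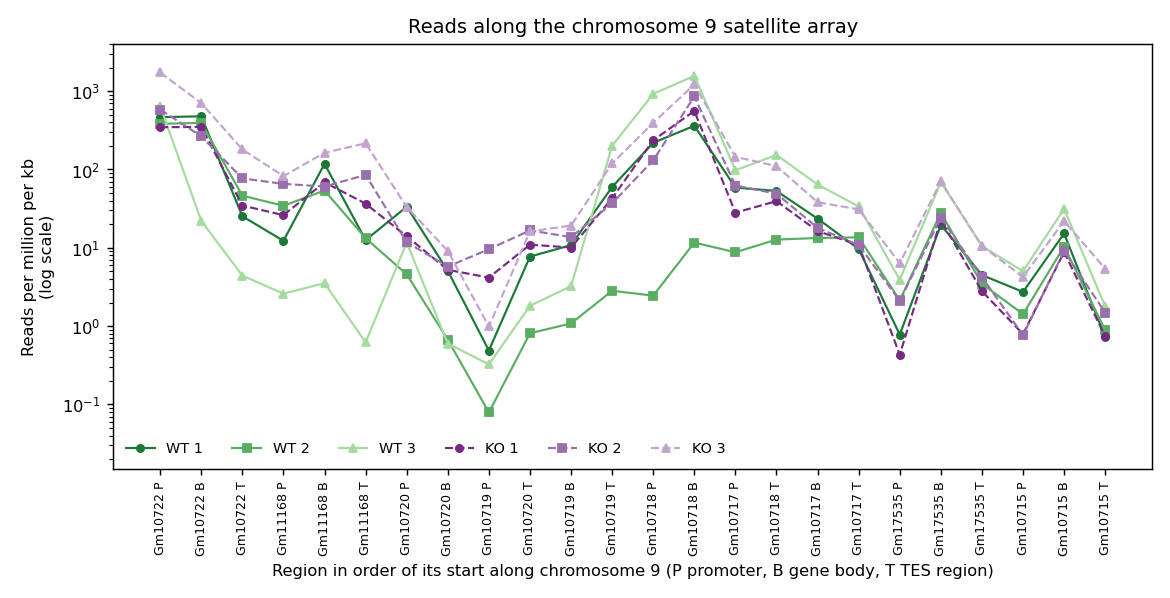
TMM-scaled CPM per kb of window (vertical, log scale) in the regions of the 5 chromosome 9 genes and their neighbours Gm10717, Gm17535 and Gm10715, in the order of their start along chromosome 9 (horizontal, no distance scale), 1 line per library. WT 3 lies far below the other libraries from the Gm10722 gene body to the Gm11168 TES region, and WT 2 from the Gm10719 TES region to the Gm10718 gene body. In the regions between these stretches both WT 2 and WT 3 lie below WT 1 and the KO libraries.

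Summed over the 5 genes, the differences were smaller. The summed gene bodies had 1560, 681 and 2361 CPM in WT and 1525, 1848 and 3284 CPM in KO, a range of 4.82 times over the 6 libraries. The mean was 1534 ± 840 CPM in WT and 2219 ± 936 CPM in KO (SD, n = 3 each), and the groups overlapped. Other genes with the same repeat varied less than the chromosome 9 genes among the WT libraries and not among the KO libraries. Gm10717, whose promoter window overlaps the Gm10718 gene body, had 602, 111 and 602 promoter reads in WT and 391, 651 and 1024 in KO, so WT 2 was low here too, and 3702, 2584 and 6072 gene body reads in WT and 3488, 2873 and 4129 in KO. Over the 12 regions of Gm10715, Gm10717, Gm17535 and Gm21738, the highest WT library was at a median 3.53 times the lowest, against 12.03 times over the 15 chromosome 9 regions and 1.71 times over 22383 other regions with a mean of at least 100 reads. Among the KO libraries the medians were 3.57, 2.81 and 1.68 times. The difference between the genotypes in this spread was not tested. Summed over the 3 neighbours, the promoters ranged 12.6 times over the 6 libraries, against 5.29 times for those of the 5 genes, and the gene bodies 4.20 against 4.82 times.

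KO was then compared with WT. A limma-voom fit over all 36321 regions, blocked on replicate pair, gave 49 called regions, 44 of them higher in KO and 5 lower (adjusted p under 0.1 by limma), a background of 0.135%. Of the 21 regions of the 7 genes it called 1, the Gm10719 promoter, whose call was already known when the genes were chosen and which is therefore only described. It had 5, 1 and 2 reads in WT and 58, 100 and 7 in KO, so the groups did not overlap, though KO 3 was near the WT libraries. The summed 165 KO reads against 8 WT reads give a ratio of 19.1 after scaling (exact 95% interval 9.46 to 44.9, counting error only). The log2 fold change was 3.97 ± 0.71 (SE) with an adjusted p of 0.0874 by limma, and 2.97, 6.34 and 1.39 in pairs 1, 2 and 3. Without WT 2 it fell to 2.54 (adjusted p by limma 0.215) and without KO 2 to 2.53 (adjusted p by limma 0.113). Both fits lose the comparison within pair 2, as the pair is a block, so they are not 2 separate checks.

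The other 20 regions did not pass. The lowest adjusted p values by limma were those of the Gm10800 TES region, at -0.30 ± 0.06 on the log2 scale (adjusted p = 0.108) with all 3 pairs below 0, the Gm11168 TES region, at 3.25 ± 0.65 (adjusted p = 0.122), and the Gm10720 TES region, at 2.22 ± 0.49 (adjusted p = 0.162). In the Gm11168 TES region the pair differences were 1.54, 2.69 and 8.40, the last one against the 16 reads of WT 3. The Gm10720 TES region had 332, 43 and 47 reads in WT and 639, 730 and 479 in KO, with pair differences of 0.50, 4.35 and 3.14. The Gm10800 promoter, with most of the reads, gave 0.66 ± 0.17 (adjusted p by limma 0.274), with pair differences of 1.55, -0.03 and 0.76. Its gene body gave -0.19 ± 0.06 (adjusted p by limma 0.352). None of the Gm10801, Gm10722 and Gm10718 regions had an adjusted p by limma under 0.438. These calls moved with the replicate pair that was left incomplete. With the pair as a block, leaving out 1 library also removes the comparison within its pair. Leaving out 1 library, which leaves 1 residual degree of freedom in place of 2, gave 18 called regions of the 21 without WT 1 or KO 1, 9 without WT 3 or KO 3, 6 without KO 2 and 4 without WT 2. The calls over all 36321 regions moved as well, from 49 with all libraries to 545 without WT 1 and 546 without KO 1. They were 312 without WT 3 or KO 3, 143 without KO 2 and 51 without WT 2.

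Over all 21 regions the median log2 fold change was 0.59, against -0.02 over all regions tested, and 15 of 21 were above 0, against 44.9% of all regions. An unadjusted p under 0.05 was found in 11 of the 21, against 8.20% of all. These p values moved with the way limma estimates the spread. With the robust form described below, the Gm10719 promoter had an unadjusted p by limma of 6.5e-04. The lowest of the other 20 was then 0.057, in the Gm10800 TES region. The SE of the Gm11168 TES region rose from 0.65 to 1.60 in that fit. In 4 of the 21 the KO libraries all lay above the WT libraries (the Gm10719 promoter, the Gm10720 gene body and TES region and the Gm11168 TES region), against 1.51% of all regions, and in 0 they all lay below, against 1.40%. Without the Gm10719 promoter, known at the choice and sharing bases with the Gm10720 TES region, these counts were 14 of 20 above 0, 10 of 20 with an unadjusted p under 0.05 and 3 of 20 with all KO libraries above. Since windows overlap, the regions are not independent, and the counts are a description. All 4 lie in the stretch where WT 2 or WT 3 was low, and their part in these counts cannot be told apart from genotype with 3 WT libraries. None of the 12 regions of the 4 other genes with the repeat was called (6 had an unadjusted p under 0.05 by limma), and their median log2 fold change was -0.11 (range -0.83 to 0.96).

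**Figure D3:**
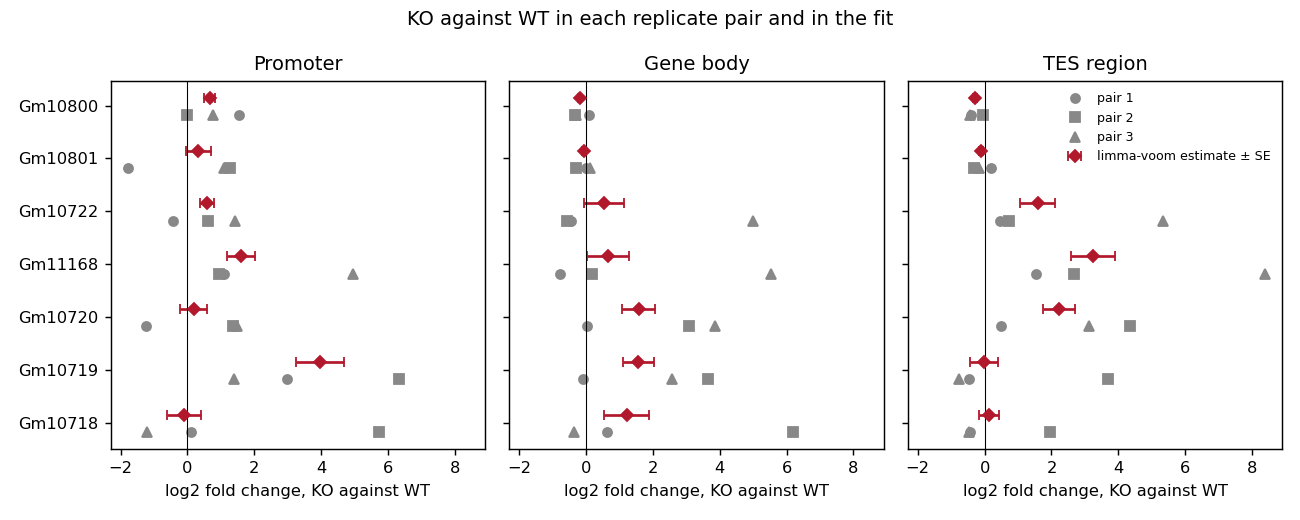
Log2 fold change, KO against WT (horizontal), of each of the 7 genes in 3 kinds of region. Grey symbols are the 3 replicate pairs and red diamonds the limma-voom estimate with its SE as the bar. The pairs of the chromosome 9 genes lie up to 8.40 apart from 0, whereas those of the Gm10800 gene body and TES region stay close to 0.

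The fit itself shows how far these regions stand from the rest in spread. The residual SD, in units of the spread that voom expects at a given read count, had a median of 0.972 and a 99th percentile of 3.28 over all regions. It was 44.1 for the Gm10718 gene body, 34.4 for the Gm10722 gene body and 31.1 for the Gm11168 gene body, the 3 highest of all 36321. Of the 20 regions with the largest residual SD, 14 belonged to the 7 genes, and 19 of their 21 were among the first 100. The Gm10719 promoter, the called one, was among the other 2, with 3.10. Outside the 7 genes, the first 20 held the Cwc22 gene body (22.4) and promoter (9.67) and the Gm10717 promoter (10.9). They also held the gene bodies of Uty (16.2), Kdm5d (12) and Ddx3y (9.80). Among other genes with the repeat, the Gm21738 promoter (7.52) and TES region (3.68) and the Gm10717 gene body (7.10) also passed the 99th percentile. The regions of Gm10715 and Gm17535 lay below it, at 1.32 to 2.30. The cause was not tested.

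**Figure D4:**
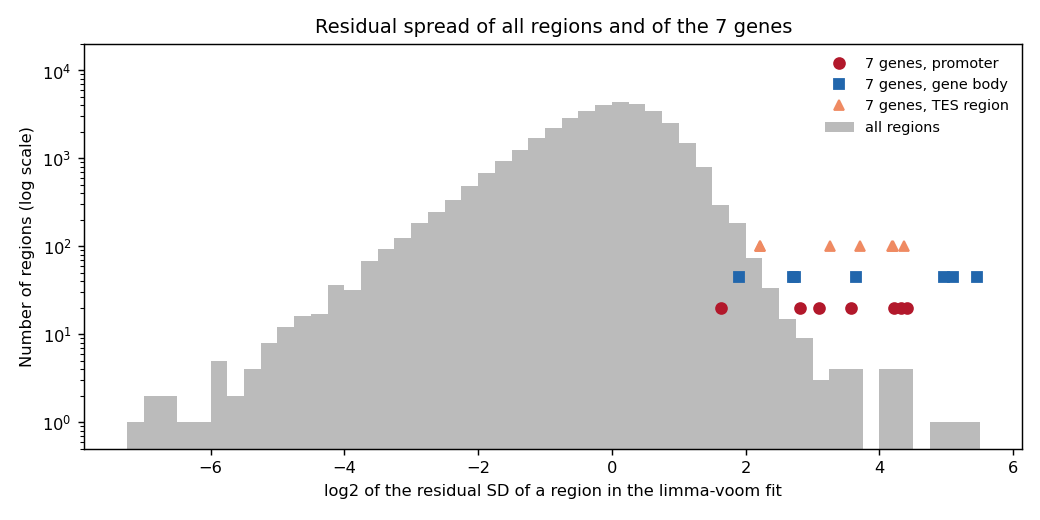
Number of regions (vertical, log scale) by the log2 of their residual SD in the limma-voom fit (horizontal), with the 21 regions of the 7 genes as symbols at an arbitrary height. The 7 genes make up 14 of the 20 regions at the right-hand end, with the Gm10718 gene body at 44.1 farthest out.

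Leaving these regions out of the scaling and leaving them out of the table had different effects on the calls of other genes. Left in the table but out of the TMM scaling, they moved no library's scale by more than 3.62e-04 (log2), and the fit again called 49 regions, 49 of them shared. Taken out of the table altogether, they left 64 called regions, 48 of them shared with the 49. The prior degrees of freedom that limma estimates from the spread of all regions rose from 11.1 to 11.97. The regions called only then with the smallest p were the gene bodies of the histone gene Hist1h3f, the antiproliferative gene Tob1, the methionine adenosyltransferase gene Mat2a and the ribosomal protein gene Rplp1 and the promoter of the RNA-binding protein gene Celf4, with adjusted p by limma between 0.101 and 0.108 before and between 0.0787 and 0.0843 after. With the robust form of the same estimate, which gives regions of extreme spread less weight, 92 regions were called, 44 of them shared with the 49, and 0 of the 21 (the Gm10719 promoter had an adjusted p by limma of 0.165). Both settings were added after the data had been seen.

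Scaling by totals moved more than TMM over all regions. Without the 7 genes the scale of a library moved by up to 0.04 (log2, centred over the libraries) for all reads, 0.02 for gene bodies, 0.12 for TES regions and 0.37 for promoters. With TMM on a single kind of region the largest shift was 5.34e-04 for promoters, 4.79e-04 for gene bodies and 0.0407 (WT 1) for TES regions, the last one above that of totals over gene bodies. For promoters under totals the shift was 0.19, 0.09 and -0.14 in WT and 0.15, 0.09 and -0.37 in KO. Where promoters alone were scaled to their total with the 7 genes included, the median log2 ratio of all other promoters, KO over WT, was -0.05, 0.02 and -0.21 in pairs 1, 2 and 3, and 38.5% of them were above 0 over the mean of the pairs. With the 7 genes out of the total it was -0.01, 0.03 and 0.02, and 52.6% were above 0. Leaving Gm10800 alone out of the total gave -0.0046, 0.02 and 0.0009, so that pair 3 lay near 0 without this gene. With TMM on promoters alone 49.6% were above 0 both with and without the 7 genes. The deposited log2 values carry TMM scales made with the 7 genes included, as the effective library totals worked out from them equal those computed here in all 6 libraries.

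**Figure D5:**
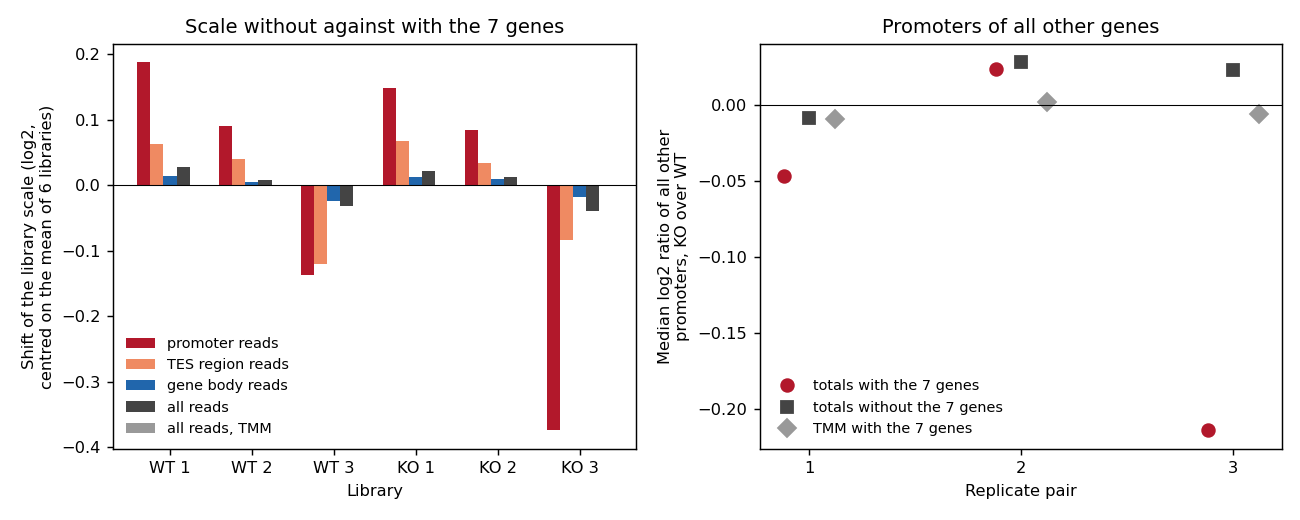
Left, shift of each library's scale (log2, centred on the mean of the 6 libraries) when the 7 genes are left out, for totals of each kind of region, totals of all reads and TMM. Right, median log2 ratio KO over WT of all other promoters in each replicate pair under 3 ways of scaling promoters alone. KO 3 moves most under promoter totals, by -0.37, and its pair has the lowest median, -0.21, with the 7 genes in the total.

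Other regions whose reads followed the promoters of the 7 genes were looked for among 22383 regions with a mean of at least 100 reads, as a description. The 5 most like the summed Gm10800 and Gm10801 promoters were gene bodies, of Fam49a, Apip, Lin54, Tent5c and Tnfrsf22 (Pearson r from 0.988 to 0.991 over 6 libraries). The CPM and r of this search used library totals without the 7 genes in place of TMM. Fam49a had 119, 146 and 153 CPM in WT and 134, 146 and 158 in KO, a far narrower range than that of the Gm10800 promoter, and 786 regions had an r above 0.9. The 5 most like the summed chromosome 9 promoters were the gene bodies of Cwf19l2, Sucla2, Znrf2, Wwp1 and Uggt2 (r from 0.966 to 0.981), with 100 regions above 0.9. All 10 share with the summed promoters that their CPM was highest in library 3 of each group.

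Of 15 other repeat-prone loci listed, 7 were measured. Besides the 4 genes with the repeat these were Sfi1, a centrin-binding protein gene, Lars2, the mitochondrial leucyl-tRNA synthetase gene, and Hjurp, the chaperone gene of the centromeric histone CENP-A, and none of their 9 regions was called. Sfi1 had 3216, 5063 and 5400 gene body reads in WT and 4550, 4032 and 5072 in KO, at -0.10 ± 0.06 (adjusted p by limma 0.719). The only measured genes within 50 kb of the 7 were Gm10715, Gm10717 and Gm17535. As a check of the labels, the promoter of 9130023H24Rik, which overlaps the targeted gene, had 388, 414 and 290 reads in WT and 0, 31 and 23 in KO, while Armc5 itself was not analysed here. Gene body signal per base of Sox2, Nes, Vim, Hes1, Fabp7 and Pax6, markers of NPCs, ranked between the 82.2 and 99.4 percentile of all genes. Of the markers of other cells, 0 of 4 for microglia and blood and 0 of 3 for mesenchyme were among the measured genes, and Kdr, of endothelial cells, ranked at the 3.92 percentile. In the oligodendrocyte lineage Olig2 ranked at 99.8, Sox10 at 85.4 and Mbp at 16.4, among neuronal genes Map2 at 77.1, Tubb3 at 71.3 and Dcx at 5.44, and the astrocyte gene S100b at 61.4.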

How the data were processed

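POLR2A ChIP-seq libraries of 3 WT and 3 KO NPC preparations were analysed from the deposited tables. The authors counted reads per gene region with HOMER and deposited raw counts. They also deposited log2 CPM values, made with TMM (edgeR) and voom (limma). Their processing notes list HOMER, MACS2, Picard, BWA and Trimmomatic with no version, bcl2fastq 2.20, and the build GRCm38 (mm10). The annotation, the treatment of reads with several positions and any removal of repeats were not given in the sources used here. According to its methods, the study used fixed windows around the transcription start and end and removed genes without signal in KO cells.

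Groups and replicate numbers came from the sample titles. All counts were tested in a single limma-voom fit (limma 3.58.1, edgeR 4.0.16, R 4.3.3) with TMM scaling, the replicate pair as a block, two-sided, Benjamini-Hochberg adjustment over 36321 regions and a threshold of 0.1 for the adjusted p. Same-numbered libraries deviated together from their group means over the regions outside the 7 genes (r = 0.776, 0.713 and 0.793), though less so over the 21 regions of the 7 genes (r = 0.387, 0.126 and -0.0396), and replicate pairs are part of the study's described design. The study describes them as biological replicate pairs, and the number of fetuses behind each was not given in the sources used here. No 2 libraries of a group were copies (chi-square per degree of freedom 28.5 to 76.5). The fit was tested on simulated data. DESeq2 1.42.0 and edgeR's quasi-likelihood test were alternatives. CPM were computed from TMM-scaled totals, except in the search for correlated regions, where library totals without the 7 genes were used.

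The members, lists and tests were chosen with earlier results of these data known. The named genes were the 7 genes, the 5 regions most correlated with each group's promoters, a list of repeat-prone loci, measured genes within 50 kb, and up to 5 regions called only with or only without the 7 genes. Windows were placed on GENCODE vM21 (12041 genes had a position) and may differ from those of the authors where a gene has several transcripts. The repeat was searched with blastn 2.17.0 (E-value 1e-10), and 31-base stretches were counted over both strands of the GRCm38 assembly. Intervals hold for counting error alone, as reads copied by PCR are not separate molecules.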

Additional observations from a re-analysis of the deposited data

How the results depend on the processing

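Against 49 called regions over the table, library totals in place of TMM gave 20, totals without the 7 genes 10, scaling each kind of region alone 29, robust empirical Bayes 92 and leaving out all regions of the 7 genes and the 4 other genes with the repeat 85. Without the replicate block limma called 0 regions (127 at an unadjusted p under 0.05, while edgeR and DESeq2 with the block called 51 and 59). Leaving out 1 library leaves 1 residual degree of freedom in place of 2, and the count was then 545 without WT 1, 51 without WT 2, 312 without WT 3, 546 without KO 1, 143 without KO 2 and 312 without KO 3. It was 382, 11 and 298 without pairs 1, 2 and 3. Of the 21 regions of the 7 genes, 18 were called without WT 1, 4 without WT 2, 9 without WT 3, 18 without KO 1, 6 without KO 2 and 9 without KO 3. The Gm10800 promoter was then called in 9 of 9 fits, with a log2 fold change of 0.37 to 0.95, against an adjusted p by limma of 0.274 with all libraries. These 9 fits are not separate checks. With the pair as a block, leaving out 1 library also removes the comparison within its pair. The estimate was 0.37 without WT 1, 0.37 without KO 1 and 0.40 without pair 1. The Gm10719 promoter was called under 3 of 10 other settings with all libraries that gave an adjusted p (DESeq2 gave none), with adjusted p from 0.0254 to 1, and the Gm11168 TES region under 1 of 11. Directions turned in 8 regions. With all libraries, the Gm10718 promoter went from -0.11 to 0.66 (edgeR), 0.96 (DESeq2), 1.86 (no replicate block) and 1.53 (deposited log2 values), and the Gm10719 TES region from -0.02 to 0.46 (edgeR), 0.59 (DESeq2), 0.0138 (RLE factors), 0.0499 (each kind scaled alone), 0.90 (no replicate block) and 0.82 (deposited log2 values). With libraries or pairs left out, the ranges that cross 0 were -0.47 to 0.63 for the Gm10718 TES region, -0.66 to 1.23 for the Gm10718 promoter, -0.65 to 0.86 for the Gm10719 TES region, -0.42 to 1.45 for the Gm10720 promoter, -0.51 to 1.502 for the Gm10722 gene body, -0.15 to 0.0676 for the Gm10801 gene body, -0.22 to 1.18 for the Gm10801 promoter and -0.34 to 1.90 for the Gm11168 gene body. The largest shift of a library scale without the 7 genes, over all regions together, was 0.0012 with TMM at a log ratio trim of 0.1 and 0.0396 with library totals, and with TMM on TES regions alone it was 0.0407. The most correlated region changed for chromosome 2 with Spearman, where several regions tie at 1 (for chromosome 9 Cwf19l2 was among those tied at 1), and, with a minimum mean of 20 reads, at 0.995 for chromosome 2 and 0.998 for chromosome 9. Mean shares of the 7 genes were, without Gm10800, 0.852% and 1.14% of promoter reads in WT and KO, 0.338% and 0.424% of gene body reads in WT and KO, and 3.29% and 3.66% of TES reads in WT and KO. Relative to all reads they were 0.855% and 1.31% for promoters in WT and KO and 0.607% and 0.556% for TES regions in WT and KO. The cause of these differences was not tested. Settings that take regions out of the table, leave out both libraries of a pair or use the robust estimate were chosen after seeing the data.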
